A study of Mus musculus with 7 samples.

Results

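*Zmiz1* and its paralogue *Zmiz2* are 2 of the 21911 protein-coding genes that GENCODE M21 places on mouse chromosomes 1 to 19, X and Y. *Zmiz1* was chosen by the H3K27-Ac peak lists themselves, because one of the longest H3K27-Ac domains shared by the tumour cell clones covers it and no other protein-coding gene, and *Zmiz2* was added as its paralogue. The number, span and rank of peaks and domains at *Zmiz1* are therefore given as a description, and no test was made on them. H3K27-Ac, the acetylation of a lysine of histone H3, marks active promoters and enhancers, and was mapped by ChIP-seq, the sequencing of DNA pulled down with an antibody. The lists were made to find regulatory elements in the cells of these skin tumours.

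*Zmiz1* and *Zmiz2* encode proteins with an SP-RING (MIZ) zinc finger, the domain by which the PIAS family hands the small modifier SUMO to target proteins. Both are transcriptional coactivators that work through partners. Among them, p53, *Smad3*, *Smad4* and the *Notch1* transcription complex are partners of *Zmiz1*, and β-catenin is a partner of *Zmiz2*. *Zmiz1* is known from insertional mutagenesis screens in mice as a partner of activated *Notch1* in T-cell leukaemia, and both proteins have been found with subunits of the SWI/SNF chromatin remodelling complex. In GRCm38, *Zmiz1* (ENSMUSG00000007817.15) lies at chr14:25459185-25666743 on the plus strand, a gene of 207559 bp with 8 transcripts and 8 distinct starts. Its reference transcript Zmiz1-208 has 24 exons and reaches its first coding base only in exon 4, 113 kb from the start. *Zmiz2* (ENSMUSG00000041164.15) lies at chr11:6389074-6406158, also on the plus strand, and packs 20 exons of its reference transcript Zmiz2-205 into 17085 bp, with 6 transcripts and 6 starts.

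The cells were 3 clones, numbered here as in the labels, all of genotype *Cdkn2ab* and strain FVB/129P2 backcross. By the study's methods the *Cdkn2ab*- allele lacks p15Ink4b, p16Ink4a and p19Arf, was derived with a Cre expressed in the germline (Act-Cre), and came from 129P2 ES cells that were crossed into FVB/N. The clones were picked after growth in soft agar from cultures of skin tumours, which the study diagnosed as trichoblastic carcinomas, and were then kept as adherent lines. They were not treated, no normal skin and no *Cdkn2ab* wild-type cells were included, and the age of the mice is not in the labels. Of the 4 H3K27-Ac libraries, clone 3 accounted for 2, and its deposited list pools them, while clones 1 and 2 had 1 each. Of the 3 IgG control libraries clone 3 had 2 and clone 1 had 1, and the labels list none for clone 2. Antibody labels and titles give H3K27ac for these libraries, while the extraction protocol names CTCF and SMC1 antibodies beside IgG and none against H3K27ac, so the mark is taken from the former. A clone that has passed a selection for growth without anchorage stands for itself and not for the whole tumour, and the SD over 3 clones is the only measure of error between them.

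The lists held 29182, 49587 and 29277 peaks for clones 1, 2 and 3, covering 26.9, 39.8 and 26.3 Mb. Clone 2 thus stands apart by the length of its list, and results that rest on it are also given without it or with its 29182 strongest peaks. The weakest peaks rested on 13, 12 and 25 ChIP reads at their summit in clones 1, 2 and 3, so a weaker site is not listed, and where no peak is given below, acetylation was not detectable at that depth. These reads were recovered from the deposited fold enrichment and p-value; a single whole number of reads was found for 98.4%, 98.8% and 95.6% of the peaks. Local backgrounds were compared at summits within 20 bp of each other where that of the first clone was a whole number of at least 2 reads. Those of clones 1 and 2 were the same at 88.0% of 807 such summits. The share was 14.1% of 722 for clones 1 and 3 and 13.3% of 662 for clones 2 and 3, so the first 2 lists share control reads. The cell type was checked by peaks within 1 kb of a transcription start, which 46.5% of all 21911 protein-coding genes had in all clones. Of 6 keratinocyte and hair follicle genes, *Cdh3*, *Sox9* and *Itga6* had such a peak in all clones, *Krt14* in clone 1 only, and *Krt5* and *Trp63* in none. This count is near the share of all genes and does not settle the cell type. Of 5 fibroblast genes, *Col1a1*, *Col1a2* and *Pdgfra* had one in clones 1 and 2, none had one in clone 3, and *Dcn* and *Thy1* had none in any clone. The suprabasal keratin *Krt10* had one in all clones and *Krt1* in none, the 3 immune and 2 endothelial genes had none, and of 3 melanocyte genes *Pmel* had one in all clones, while *Tyr* and *Dct* had none.

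The starts of these genes under the peaks are shown first, since the acetylation at them is common to all clones. The windows below hold the 250 bases before each start on the plus strand, read from the RefSeq assembly GRCm38.p6, with the CpG dinucleotides in capitals. They lie at chr14:25458974-25459223 for Zmiz1-208, at chr14:25607588-25607837 for Zmiz1-204, a non-coding transcript that starts in intron 6, and at chr11:6389114-6389363 for Zmiz2-201, whose start lies in intron 1 of Zmiz2-205 and whose window begins in exon 1. The last 2 were taken because their start lay nearest the summits of all clones, within 209 and 201 bases, and the Zmiz1-208 window was added after its values were seen.
Zmiz1-208 start: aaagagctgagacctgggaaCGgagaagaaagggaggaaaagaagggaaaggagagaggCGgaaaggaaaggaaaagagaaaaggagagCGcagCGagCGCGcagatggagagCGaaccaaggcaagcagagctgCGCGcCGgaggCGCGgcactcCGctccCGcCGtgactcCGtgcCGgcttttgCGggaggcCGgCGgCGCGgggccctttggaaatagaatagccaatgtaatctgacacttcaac
Zmiz1-204 start: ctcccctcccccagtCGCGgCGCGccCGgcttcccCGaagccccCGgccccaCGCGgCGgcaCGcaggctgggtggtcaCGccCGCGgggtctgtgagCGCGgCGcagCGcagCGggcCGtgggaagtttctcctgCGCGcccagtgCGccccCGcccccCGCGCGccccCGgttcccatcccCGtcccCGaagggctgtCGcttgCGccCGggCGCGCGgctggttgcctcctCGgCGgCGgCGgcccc
Zmiz2-201 start: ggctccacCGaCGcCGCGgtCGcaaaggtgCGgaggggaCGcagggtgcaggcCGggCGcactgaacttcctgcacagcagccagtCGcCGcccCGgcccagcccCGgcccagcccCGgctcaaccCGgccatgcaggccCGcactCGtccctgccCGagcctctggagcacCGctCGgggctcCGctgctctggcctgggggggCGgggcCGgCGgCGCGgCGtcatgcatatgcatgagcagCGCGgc
The window of the Zmiz1-204 start inside the gene had a GC content of 81.2% with 40 CpG, above 99.1% of 32851 RefSeq promoter windows of the same length. The Zmiz2-201 window had 76.4% with 29 CpG, above 97.0% of them. The window of Zmiz1-208, where the full-length transcript begins, had 59.6% with 22 CpG and was above only 71.1%. The median promoter had 52.4% and 6 CpG, so the richest of these windows belongs to the start inside intron 6 and not to the first exon.

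Inside *Zmiz1* the regions that all clones shared away from starts all had their mean summit in introns. The 4 in the domain with the highest fold enrichment by mean rank over the clones, all more than 1 kb from any start, are shown. They are windows of 250 bases around the mean summit, on the plus strand of GRCm38.p6, at chr14:25476525-25476774 and chr14:25497465-25497714 in intron 1 and at chr14:25505021-25505270 and chr14:25527485-25527734 in intron 2. Capitals mark matches to any of 4 motifs searched on both strands: AP-1 (TGANTCA), TEAD (GGAATG), TCF/LEF (CTTTGAT) and RUNX (TGTGGT).
Zmiz1 intron 1, 17.4 kb: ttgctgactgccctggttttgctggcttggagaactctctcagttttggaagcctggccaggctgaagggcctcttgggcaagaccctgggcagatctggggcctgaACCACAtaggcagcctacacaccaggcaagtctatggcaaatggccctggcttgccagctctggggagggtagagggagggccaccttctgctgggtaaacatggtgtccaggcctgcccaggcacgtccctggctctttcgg
Zmiz1 intron 1, 38.4 kb: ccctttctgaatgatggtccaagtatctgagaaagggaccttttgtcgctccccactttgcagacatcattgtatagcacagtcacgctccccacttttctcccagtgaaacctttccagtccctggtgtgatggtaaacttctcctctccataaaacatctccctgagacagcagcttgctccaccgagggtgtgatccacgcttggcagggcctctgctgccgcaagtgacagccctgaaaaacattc
Zmiz1 intron 2, 45.9 kb: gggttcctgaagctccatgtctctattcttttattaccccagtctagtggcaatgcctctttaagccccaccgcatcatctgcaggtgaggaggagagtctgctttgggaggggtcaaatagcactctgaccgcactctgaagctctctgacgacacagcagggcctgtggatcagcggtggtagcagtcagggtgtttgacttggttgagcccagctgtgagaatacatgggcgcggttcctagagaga
Zmiz1 intron 2, 68.4 kb: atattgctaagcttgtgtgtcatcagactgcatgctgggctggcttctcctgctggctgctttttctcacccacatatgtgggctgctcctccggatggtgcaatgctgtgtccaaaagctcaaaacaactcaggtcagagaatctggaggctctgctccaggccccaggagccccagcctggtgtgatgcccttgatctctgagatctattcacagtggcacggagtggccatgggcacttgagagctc
The distances are those of the mean summit from the start of Zmiz1-208. A single match was found, a RUNX motif on the minus strand at base 108 of the first window, so that no motifs overlapped. These letters were not in the other windows, nor in the 3 start windows. RUNX motifs were present in 20.0%, TEAD in 16.6%, AP-1 in 14.9% and TCF/LEF in 3.35% of the windows of 5764 shared regions of the genome more than 1 kb from a start, and in 14%, 12.6%, 6.75% and 3.21% of the 32851 promoter windows. Over the whole length of the 9 such regions of the *Zmiz1* domain, 27 kb in all, there were 8 AP-1, 23 TEAD, 2 TCF/LEF and 19 RUNX matches. That is 0.297, 0.853, 0.0741 and 0.704 per kb, against 0.603, 0.703, 0.144 and 0.951 per kb over all 5764 regions. The *Zmiz1* regions had a median GC content of 53.8%, against 49.2%, and a match is a run of letters and not a bound factor.

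H3K27-Ac peaks lay over *Zmiz1* in every clone and covered from 11.9% to 36.0% of it. Clone 1 had 35 peaks over the gene, clone 2 had 84 and clone 3 had 21. They covered 36.5, 74.7 and 24.8 kb, or 17.6%, 36.0% and 11.9% of the gene, with a mean of 21.8% ± 12.6 (SD, n = 3). Clone 2 was the highest and clone 3 the lowest by each of these measures. Without clone 2 the mean was 14.8%, and with the 29182 strongest peaks of clone 2 its share was 28.2%, still above the others. *Zmiz2* had 1 peak over the gene in clone 1, 4 in clone 2 and 1 in clone 3, covering 6.09%, 15.5% and 6.06% of it (mean 9.20% ± 5.42, SD, n = 3, and 6.08% without clone 2). In each clone a larger share of *Zmiz1* than of *Zmiz2* was covered, by 11.5, 20.5 and 5.88 percentage points (12.6 ± 7.39, SD, n = 3, and 8.70 without clone 2).

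Set beside genes of like length, *Zmiz1* lay near the top in each clone and *Zmiz2* in the upper part. Among 2135 protein-coding genes of 100 to 400 kb, of which the median had 0.552%, 0.837% and 0.700% of its length under peaks in clones 1, 2 and 3, *Zmiz1* ranked 5, 5 and 11. By the number of bases under peaks it ranked 4, 3 and 7 among all 21911 genes. *Zmiz2* ranked 1514, 741 and 1296 by share among 6495 genes of 10 to 30 kb, where the median was 2.55%, 3.63% and 2.15%. For *Zmiz1* this is close to the measure that led to its choice, and no test was made of it.

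The plot of peaks along *Zmiz1* shows where they lie.

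**Figure D1:**
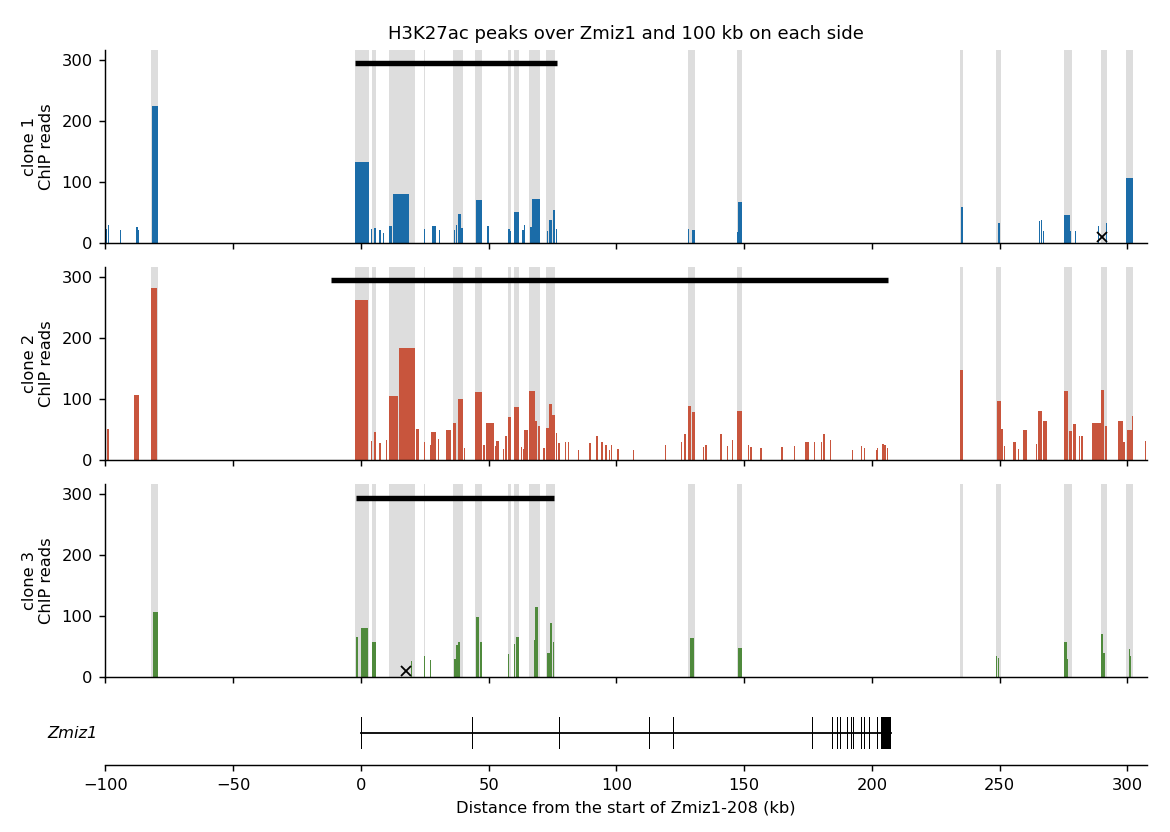
H3K27-Ac peaks over *Zmiz1* and 100 kb on each side in clones 1, 2 and 3 (x axis, distance from the start of Zmiz1-208 in kb; y axis, ChIP reads at the summit). Each bar is a peak drawn at its width, and a cross marks a peak whose reads could not be settled. Grey bands are regions shared by all clones. The black bar is the joined domain with the largest overlap with the gene, and the lowest track gives the exons of Zmiz1-208. Peaks crowd into the first 77.5 kb in all clones and continue to the end of the gene in clone 2.

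Most of the acetylated bases lay in the upstream part of *Zmiz1*. Upstream of the middle of the gene lay 91.2% of them in clone 1, 73.8% in clone 2 and 88.1% in clone 3 (84.4% ± 9.25, SD, n = 3). Clone 2 had the lowest share, and without it the mean was 89.6%. Nearly all summits were intronic, with 34 of 35 in clone 1, 78 of 84 in clone 2 and 20 of 21 in clone 3 by the exons of Zmiz1-208. Intron 1 of 43.1 kb was covered to 43.0%, 58.2% and 31%, and intron 2 of 34.0 kb to 42.5%, 71.2% and 23.9%. In both the order of the clones was the same, with clone 2 above clone 1 and clone 1 above clone 3.

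The next introns separated the clones. Intron 3, of 35.2 kb, had no peak in clones 1 and 3, while 13 summits of clone 2 fell in it and covered 17.2%. Introns 4 and 5 had 1 summit each in clone 2, with 8.00% and 7.04% covered, and intron 7 had 4, with 23.7% covered, against none in the other clones. Intron 6, the longest with 54.2 kb, was covered in all clones, to 5.96%, 23.5% and 5.44%. From intron 8 to the end of the gene, peaks of clone 2 alone were found. The longest stretch of *Zmiz1* without a peak was 58.4 kb in clone 1 and 58.4 kb in clone 3, from intron 6 to the end of the gene, and 9.63 kb in clone 2.

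**Figure D2:**
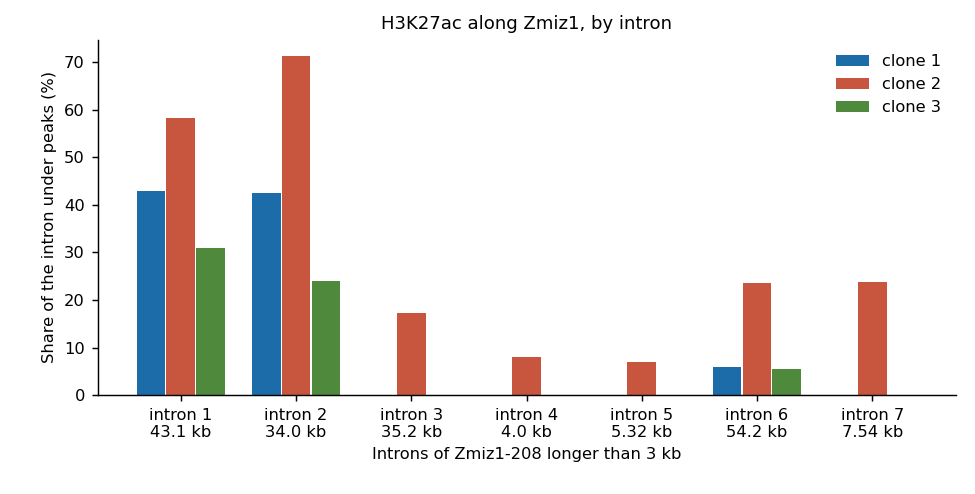
Share of each intron of Zmiz1-208 longer than 3 kb that lies under H3K27-Ac peaks (y axis, percent; x axis, introns with their length in kb; bars, the 3 clones, with no error bars as each is a single list). Introns 1 and 2 are covered in all clones, at 23.9% to 71.2%, and introns 3, 4, 5 and 7 in clone 2 only.

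This difference came with the longer list of clone 2. Of the peaks of clone 2 over *Zmiz1*, 31 were overlapped by another clone and 53 were not. The 31 had 18 to 262 ChIP reads with a median of 60, and the 53 had 14 to 49 with a median of 24.0. The unshared peaks were thus the weaker ones. With the 29182 strongest peaks of clone 2, 26 of the 31 and 20 of the 53 remained, and at a −log10 q of at least 5, 28 and 27. Clone 1 had a single peak over *Zmiz1* that no other clone had, with 16 reads, and clone 3 had none. Of the peaks of clone 1, 94.3% were overlapped by clone 2 and 48.6% by clone 3, and of those of clone 3, 90.5% by clone 1 and 100% by clone 2. In reverse, 35.7% and 23.8% of the peaks of clone 2 were overlapped by clones 1 and 3. The same shares over all peaks were not computed, and the lists differ in length, with 29182, 49587 and 29277 peaks. In the whole genome 33914 of 57727 merged regions were found in 1 clone, so these shares are no result about *Zmiz1*. Whether the 53 peaks of clone 2 reflect its cells or its list was not tested.

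Joining peaks no more than 12.5 kb apart gave 1 domain over *Zmiz1* in each clone, and *Zmiz1* was the only protein-coding gene in each. In clone 1 the domain ran over chr14:25456970-25535842, 78873 bp with 31 peaks that covered 35533 bases. In clone 2 it ran over chr14:25447416-25665424, 218009 bp with 85 peaks and 77417 bases. In clone 3 it ran over chr14:25457235-25534684, 77450 bp with 20 peaks and 22644 bases. The domains of clones 1 and 3 had nearly the same ends, and that of clone 2 continued over 99.4% of the gene. The mean span was 124777 bp with an SD of 80744 bp (n = 3), and 78162 bp without clone 2. Peaks filled 45.1%, 35.5% and 29.2% of the domains of clones 1, 2 and 3, and the longest gap inside was 7077, 9628 and 10160 bp.

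The domain ended in the introns before the coding sequence in 2 clones. In clones 1 and 3 its end lay 902 and 2060 bases before exon 3, and 36.2 and 37.4 kb before the first coding base in exon 4. It held exons 1 and 2, which are not translated, and 36.9% and 36.4% of the gene. In clone 2 it held 23 of the 24 exons. The next peak outside lay 77.2, 67.9 and 77.6 kb before the domain and 51.4, 28.2 and 53.2 kb after it in clones 1, 2 and 3. Joining over up to 20 kb therefore left the ends where they were, but over up to 5 kb it broke the row of peaks up, with a mean span over clones of 52353 bp and 27717 bases under peaks. With the 29182 strongest peaks of clone 2 its domain shrank to 97073 bp. At a −log10 q of at least 5 the domains spanned 78194, 118099 and 20568 bp, so that in clone 3 the row of peaks broke up.

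By span the *Zmiz1* domain ranked 7 of 14560 domains in clone 1, 2 of 18280 in clone 2 and 2 of 16371 in clone 3. By bases under peaks it ranked 3, 5 and 4. These ranks are what *Zmiz1* was selected on. In clone 1 the domain just above had 92.7 kb and held *Socs3*, the suppressor of cytokine signalling, and *Pgs1*, and the one just below had 78.8 kb and held 7 genes, among them *Ahnak*. In clone 2 the only longer domain had 272 kb with 17 genes, among them *Jund*, and the next shorter had 217 kb with 12 genes, among them *Nfix*. In clone 3 the longer one was again that of *Socs3* and *Pgs1*, with 84.0 kb, and the next shorter had 74.7 kb with *Dnajb12* and *Ddit4*. All 6 neighbours in rank held at least 2 protein-coding genes. The *Zmiz1* domain held 1, which was itself part of the rule by which it was chosen. The median domain spanned 1458, 1467 and 1363 bp. With the strongest 29182 peaks of each list the domain of clone 2 ranked 10 by span, and at a −log10 q of at least 5 the ranks were 3, 10 and 245.

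**Figure D3:**
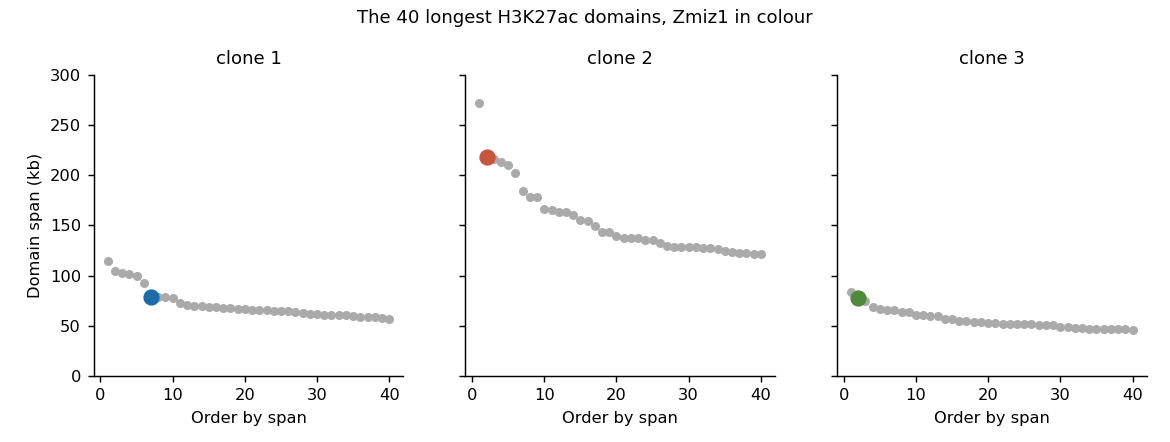
Span of the 40 longest H3K27-Ac domains in each clone (y axis, kb; x axis, order by span), with the *Zmiz1* domain as the large coloured point. Its order is 7 in clone 1 at 78.9 kb, and 2 in clones 2 and 3 at 218 and 77.5 kb.

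Merging the peaks of all clones over *Zmiz1* gave 79 regions. Peaks of all 3 clones overlapped 14 of them, 11 were found in 2 clones and 54 in 1 clone, of which 53 in clone 2. The shared 17.7% compares with 15732 of 57727 regions, or 27.3%, in the whole genome. Of the 11 regions in 2 clones, 10 joined clones 1 and 2 and 1 joined clones 2 and 3. In the whole genome 8081 regions were found in 2 clones, and their split by pair was not computed. Clones 1 and 2 share control reads, and whether this bears on the count was not tested. Within 100 kb on each side there were 107 regions, of which 20 were shared. Over *Zmiz2* there were 4 regions, of which 1 was shared, and 5 of 13 with 100 kb on each side. Of the 14 shared regions of *Zmiz1*, 12 lay in the stretch of 77.5 kb that the domains of all clones have in common.

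**Figure D4:**
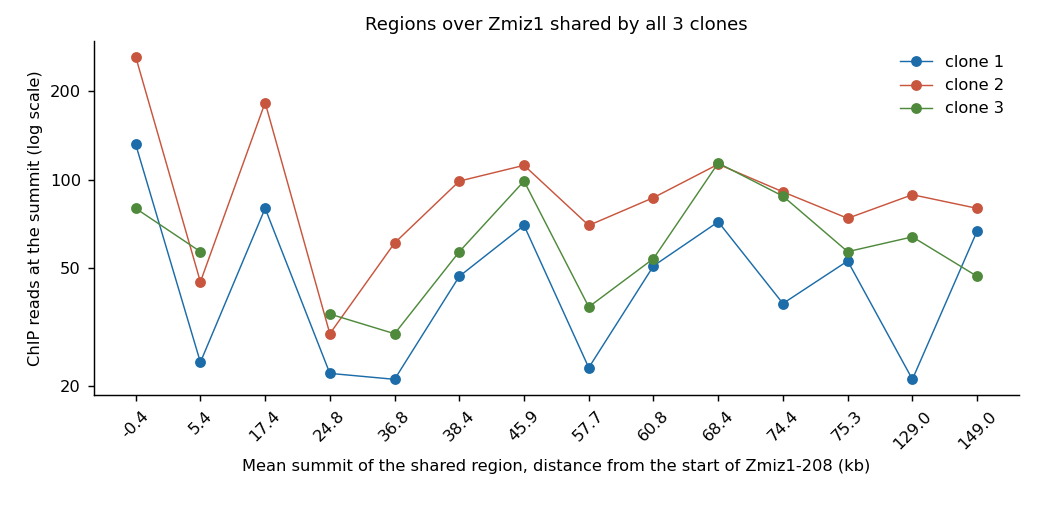
ChIP reads at the summit of the 14 regions over *Zmiz1* shared by all clones (y axis, log scale; x axis, mean summit as distance from the start of Zmiz1-208 in kb, in order and not to scale; lines join the points of 1 clone). Clone 2 is highest in 10 of the 13 regions with a value in every clone and clone 1 lowest in 11.

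The shared region over the first exon was the strongest of *Zmiz1* in clones 1 and 2, while 3 regions of intron 2 had more reads in clone 3. Its summit had 132 ChIP reads in clone 1 (95% exact Poisson interval 110 to 157), 262 in clone 2 (231 to 296) and 80 in clone 3 (63.4 to 99.6). The reads are those of the peak with the smallest p-value in the region. These intervals cover counting error only, and the reads are not scaled for depth. The summit lay 316 bases after the start of Zmiz1-208 in clone 1 and 327 bases after it in clone 3, but 1769 bases before it in clone 2. Clone 3 had a second peak at that place, with 65 reads at -1.80 kb. Within each list the first exon of *Zmiz1* was no extreme promoter, with more reads than 68.8%, 64.6% and 46.3% of the genes with a promoter peak, whose medians were 98.0, 213 and 83.0 reads.

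Intron 1 held 5 shared regions. At 5.44 kb the summits had 24, 45 and 57 reads in clones 1, 2 and 3. At 17.4 kb lay the widest shared region of the gene, 10.1 kb at chr14:25470317-25480421, with 80 reads in clone 1 and 183 in clone 2, and a fold enrichment of 9.21 in clone 3, whose reads could not be settled. It was the second strongest region of *Zmiz1* in clones 1 and 2. At 24.8 kb there were 22, 30 and 35 reads, and at 36.8 kb 21, 61 and 30. At 38.4 kb there were 47, 99 and 57, so that clone 3 exceeded clone 1 at every settled region of this intron while clone 2 led at the last 2.

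Intron 2 held 6 shared regions. At 45.9 kb the summits had 70, 112 and 99 reads, and at 57.7 kb 23, 70 and 37. At 60.8 kb there were 51, 87 and 54, where clones 1 and 3 were nearly equal. At 68.4 kb there were 72, 113 and 114 reads, the highest settled value of clone 3 over the gene. At 74.4 kb there were 38, 91 and 88, and at 75.3 kb, the last region before the domain ends in clones 1 and 3, 53, 74 and 57. Clone 3 was above clone 1 in each of these regions. The last one covers *Mir3075*, a microRNA gene in intron 2 at chr14:25534439-25534523, over its full 85 bases in all clones. Its mature product, shown with the seed of bases 2 to 8 in capitals as the only small RNA under these peaks, lies at chr14:25534491-25534511 on the plus strand in RefSeq.
miR-3075-3p: aUCCUUGGccuuccuaggugu
No expression of it was measured here.

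Intron 6 held the last 2 shared regions, both outside the domain of clones 1 and 3. At 129 kb the summits had 21, 89 and 64 reads, and clone 1 was lowest by far. At 149 kb lay the acetylated starts of Zmiz1-203 and Zmiz1-204, with 67 reads in clone 1 (51.9 to 85.1), 80 in clone 2 (63.4 to 99.6) and 47 in clone 3 (34.5 to 62.5). Clone 3 was lowest here, as it was at the first exon. Both transcripts are annotated as processed transcripts without a coding sequence. The reads exceeded those of 30.2%, 16.9% and 11.4% of the genes with a promoter peak, below the first exon in each clone.

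Reads of different clones can differ throughout the genome, by depth or by enrichment, and which of them applies was not tested. In the deposited lists the recovered reads were scaled by 0.424, 0.428 and 0.308 in clones 1, 2 and 3. Each ratio was therefore set beside that of all shared regions of the autosomes. Over *Zmiz1*, clone 2 had a median of 1.93 times the reads of clone 1, against 2.07 times over 15047 shared regions. Clone 3 had 1.43 times those of clone 1, against 0.993, and clone 2 had 1.39 times those of clone 3, against 2.30. Relative to all shared regions these are 0.931 (SD over 14 regions 0.398), 1.44 (0.696 over 13) and 0.604 (0.288 over 13). These SDs give the spread between regions of 1 gene. They do not measure error between clones, so whether 2 clones differ was not tested. Most shared regions of the genome lie at starts, however, and most of those of *Zmiz1* do not. Among shared regions more than 1 kb from any start of a protein-coding gene, a comparison chosen after the values were seen, the medians over *Zmiz1* were 1.99, 1.58 and 1.30, against 1.55, 1.44 and 1.08 in the genome. The relative values were then 1.29 ± 0.547 (SD over 12 regions), 1.10 ± 0.433 (11) and 1.20 ± 0.393 (11). The ratios of clone 2 to clone 1 and of clone 2 to clone 3 had thus changed sides of 1. At the 2 shared regions with starts, the relative values were 0.683, 0.770 and 0.872. Single regions ranged from 0.577 to 2.05 for clone 2 over clone 1, and from 0.610 at the first exon to 3.07 at 129 kb for clone 3 over clone 1, relative to all shared regions.

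Of the 8 starts of *Zmiz1*, 6 had a peak within 1 kb in all clones, where 40.2% of the 93459 starts of protein-coding genes had one. They form 2 groups, 4 at the first exon and 2 in intron 6, and each group shares its peaks, so the 6 are not independent. The start of Zmiz1-205 at exon 2 lay 1789, 1319 and 1688 bases from the nearest peak in clones 1, 2 and 3. The start of Zmiz1-207 at exon 21 lay 477 bases from a peak in clone 2, and 37358 and 37473 bases away in clones 1 and 3. With a peak required to cover the start base 5 remained, and within 2 kb there were 7.

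*Zmiz2* had a single peak over the gene in clones 1 and 3, which spanned the first exon and had its summit in intron 1. The shared region at chr11:6388575-6390118 had 83 reads in clone 1 (66.1 to 103), 246 in clone 2 (216 to 279) and 79 in clone 3 (62.5 to 98.5). Clone 2 was highest, as at *Zmiz1*, and clones 1 and 3 overlapped within counting error. This was more than 40.4%, 59.8% and 45.3% of the genes with a promoter peak. The summits lay 137, 491 and 166 bases after the start of Zmiz2-205, and the first 3 of the 6 starts had the peak within 1 kb in all clones. The starts at 6395188, 6395605 and 6396729, in exons 2, 3 and 6, did not. Clone 2 had 3 further peaks over *Zmiz2*, with 19 reads in intron 6 and 29 and 25 reads in exon 20. The domain was the single peak of 1463 and 1390 bp in clones 1 and 3, which ranked 7250 and 8051 by span. In clone 2 it spanned 28581 bp with 8 peaks, reached to *Ppia*, the gene of cyclophilin A, and ranked 1176.

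**Figure D5:**
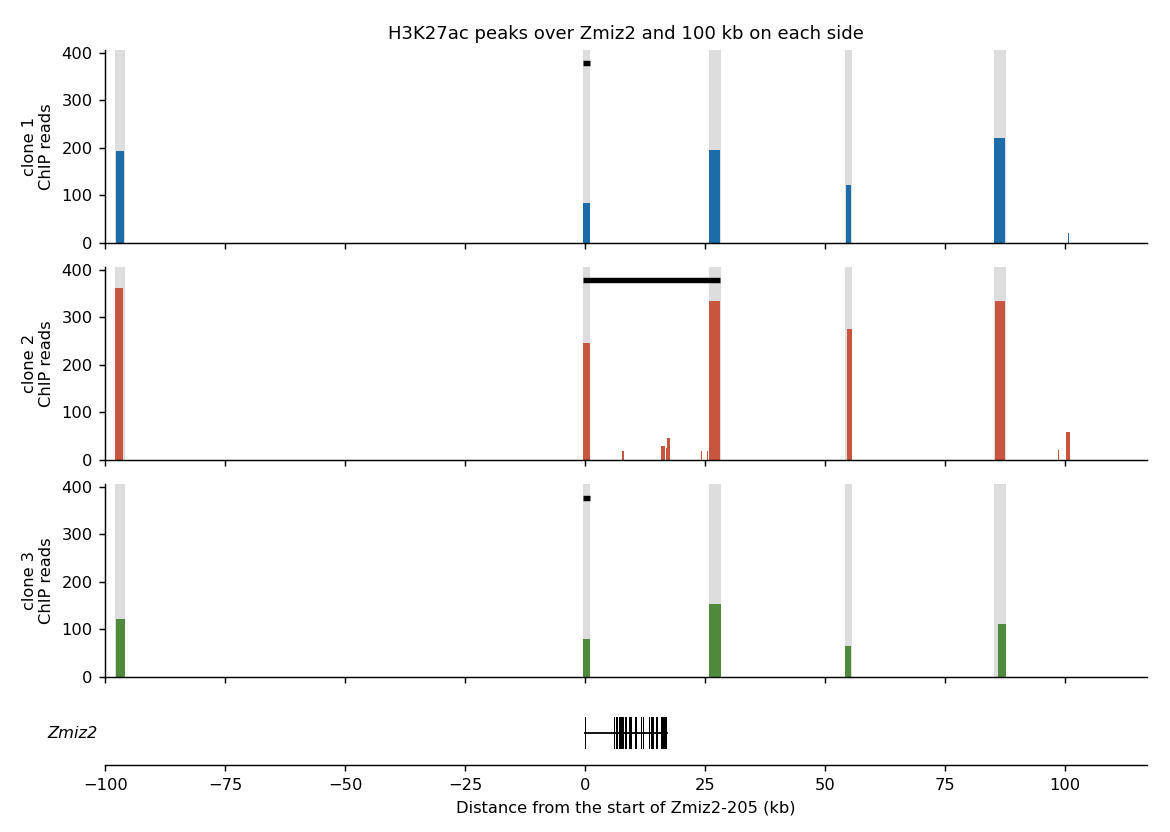
H3K27-Ac peaks over *Zmiz2* and 100 kb on each side in clones 1, 2 and 3 (x axis, distance from the start of Zmiz2-205 in kb; y axis, ChIP reads at the summit; bars, bands and tracks as for *Zmiz1*). The gene itself carries 1 shared region, at its start, and the other 4 shared regions lie at the starts of *Ogdh*, *Ppia*, *H2afv* and *Purb*.

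Around *Zmiz1* the shared regions were few on the upstream side and more numerous downstream. Within 100 kb upstream there were 7, 4 and 2 peaks in clones 1, 2 and 3, and downstream 12, 24 and 9. The only shared upstream region covered the start of *Gm26660*, a long non-coding RNA gene on the minus strand, at -80.7 kb, with 224, 282 and 107 reads, above the first exon of *Zmiz1* in every clone. *Zmiz1os1*, an antisense RNA gene whose start at 25461128 lies inside *Zmiz1*, and *Gm47920* in intron 1 had their starts under the promoter peak in all clones; ChIP-seq carries no strand, so the acetylation at these starts cannot be told apart from that of *Zmiz1*. *Gm47921* in intron 1 had a peak within 1 kb in clones 2 and 3, *Gm26772* in intron 3 in clone 2 only, and *Gm17747* upstream of the gene in none. Of the non-coding genes downstream, *1700054O19Rik* had one in clones 2 and 3 and *Ppifos* in none. Downstream, *Ppif*, the gene of the mitochondrial cyclophilin D, had a peak at its start in all clones, with 58, 147 and 50 reads. *Zcchc24*, a zinc finger gene, had one at its start in clone 2 only, yet 11149, 24773 and 4775 of its bases were under peaks.

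Around *Zmiz2* the starts dominated. *Ogdh*, which encodes a subunit of the oxoglutarate dehydrogenase of the citric acid cycle, had 192, 362 and 122 reads at its start. *Ppia* had 196, 334 and 153. *H2afv*, a histone H2A variant gene, had 122, 275 and 66, and *Purb*, a gene of a purine-rich element binding protein, had 221, 333 and 112. All 4 were above *Zmiz2* in clones 1 and 2, and *H2afv* was below it in clone 3. The microRNA gene *Mir7651* in intron 14 of *Zmiz2* lay 11516, 3217 and 11522 bases from the nearest peak in clones 1, 2 and 3.

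The genes most like *Zmiz1* were sought by the bases under peaks in each clone, as log2(bases + 1), over 3 clones. The nearest were *Myh9*, a non-muscle myosin heavy chain, at a distance of 0.688, *Fgfr2*, a receptor of fibroblast growth factors, at 0.799, *Cmip* at 0.885, the transcription factor gene *Nfix* at 0.949 and the guanine nucleotide exchange factor gene *Trio* at 1.15. *Myh9* had 27916, 54048 and 19798 bases under peaks in clones 1, 2 and 3, where *Zmiz1* had 36550, 74698 and 24783. Each had its highest number in clone 2, as had the lists as a whole, and for *Fgfr2* the annotated gene of 2961 kb takes in far more sequence. For *Zmiz2* the nearest were *Cdc37*, a co-chaperone of Hsp90, at 0.101, *Prdm11* at 0.121 and *Sfxn5* at 0.123. With 3 values per gene this likeness is a description.

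Most genes of the lists of partners and related pathways had acetylated promoters. Of 58 listed genes, 50 had a peak within 1 kb of a start in all clones, against 46.5% of all 21911 protein-coding genes. By clone it was 50, 55 and 50 of 58, against 49.8%, 56.9% and 48.1% of all genes. The lists hold many broadly expressed genes, and the count says nothing particular to *Zmiz1*. All 5 PIAS and SP-RING SUMO ligases had a peak in every clone, as had all 12 genes counted of the SUMO pathway and all 17 SWI/SNF (BAF) genes, among them *Smarca4*, the ATPase.

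In the Notch pathway 8 of the 19 genes lacked such a peak in at least 1 clone. Every clone had one at the other 11, against 46.5% of all genes. By clone it was 11, 16 and 11 of the 19, against 49.8%, 56.9% and 48.1% of all genes. No test was made of these counts, and they are no result about the pathway. The receptors *Notch1*, *Notch2* and *Notch4*, the ligands *Jag1* and *Jag2*, the DNA-binding *Rbpj*, the coactivators *Maml1*, *Maml2* and *Maml3* and the targets *Hes1* and *Hey1* were among the 11. The receptor *Notch3*, the ligands *Dll1* and *Dll4* and the targets *Hey2* and *Nrarp* had one in clone 2 only, and the ligand *Dll3*, the target *Heyl* and *Dtx1* had none. *Notch1*, the partner of *Zmiz1*, had 8009, 17454 and 2277 of its bases under peaks in clones 1, 2 and 3, and *Rbpj* had 24672, 13615 and 24729. Clone 2 was thus highest at *Notch1* and lowest at *Rbpj*. The 5 other genes counted, the partners *Smad3*, *Smad4*, *Trp53* and *Ctnnb1* and also *Myc*, had such a peak in every clone. *Smad3* had 13855, 29942 and 12596 bases under peaks, the same order of clones as *Zmiz1*. It is also the order of the whole lists, with 26.9, 39.8 and 26.3 Mb under peaks, and says nothing particular to these genes.

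The local background at peaks, which depends only in part on the number of copies of a chromosome, was compared between Chr14, on which *Zmiz1* lies, and the other autosomes. In each clone the median background on Chr14 equalled that of the other autosomes (ratio 1.00), and the mean was 0.919, 0.942 and 0.943 times. The ChIP reads at summits had median ratios of 0.892, 1.00 and 0.963. The background of clone 2 comes from control reads that it shares with clone 1, so that list gives no value of its own for the number of copies. The median background is only 1.00 control read at the summits of clones 1 and 2, on Chr14 and elsewhere, and 2.00 in clone 3. At values this low the ratio of medians moves in coarse steps. A loss of copies, in all or in part of the cells, can therefore not be told from it.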

How the data were processed

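The data were narrowPeak lists of H3K27-Ac ChIP-seq, 1 for each of 3 clones. By the methods, single-end reads were aligned to GRCm38 by the authors, and the submitters' processing notes name Bowtie2, MACS2 2.1.1 and GRCm38. The names of the peaks mention a filter against allelic mapping bias for clones 1 and 2 only. In the deposited lists fold enrichment is the ratio of the ChIP pileup plus 1 to the background plus 1 at a summit, which was not compared between lists; the deposited −log10 p and −log10 q belong to the same summit.

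ChIP reads and background were recovered from fold and p as the whole numbers that give both; on simulated peaks 100% were right, and peaks with several solutions (480, 583 and 1275) were left out. Peaks on other sequences (5, 21 and 3) were not used. Lists were merged by an overlap of at least 1 bp, and domains joined peaks over gaps of up to 12.5 kb. Genes and starts were taken from GENCODE M21, promoters and microRNAs from RefSeq. The work was done in Python 3.11.15 with matplotlib 3.10.9, scipy 1.17.1, pandas 2.3.3 and numpy 2.4.6. The genes named are Zmiz1 and Zmiz2, their neighbours within 100 kb, the partner and marker lists, the genes nearest in bases under peaks and the domains next in rank. With 1 condition no test between groups was made; values are given per clone, with the SD over clones. Some genes of the partner lists are not reported here, for a reason unrelated to their values, and are not in their counts. The members and lists were chosen with earlier results of these data known. The alternatives tried were stricter peaks (−log10 q of at least 5), equal numbers of peaks, other joining distances, overlaps and start windows, and leaving out each clone.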

Additional observations from a re-analysis of the deposited data

How the results depend on the processing

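Of 52 alternative values, 13 moved by more than 1 SD over clones or regions, or by over 1.5 times for a count, and the other 39 did not; leaving out a clone moved 1 of 36. The median rank of the Zmiz1 domain by span, 2.00 in the report, was 10 at a −log10 q of at least 5, 7.00 with the same number of peaks in each clone, and 6 and 43.0 with peaks joined over 5 and 20 kb. Its median rank by bases under peaks, 4.00, was 12 and 8.00 with those joining distances. Joining over 5 kb took its mean span from 124777 to 52353 bp and its bases under peaks from 45198 to 27717, each within 1 SD over clones. The 12 shared regions of the domain were 3 at a −log10 q of at least 5, 2 with joining over 5 kb, since the stretch common to all clones is then shorter, 7 with summits within 250 bp and 5 with an overlap of 50% of both peaks; leaving out each clone gave 12 to 23, the last without clone 3. The Chr14 ratio of 1.00 was 0.937 as a mean over peaks and 0.954 from ChIP reads. It was 1.00 in each of the 3 clones, which left almost no SD, so nearly any change of it counted as moved. The ChIP reads of clone 2 over clone 3 at shared Zmiz1 regions, 0.604 of all shared regions, were 1.20 of those more than 1 kb from a start, a comparison added after seeing the data, and so changed sides of 1; those of clone 2 over clone 1, 0.931, also passed 1, at 1.29 there and at 1.03 as a mean of log2 ratios, within 1 SD; at starts and away from them the clones differ in reads throughout the genome. Where no cause is given, it was not tested. No paired analysis was possible because there is 1 condition and each clone has 1 list. Depth limits what a missing peak shows, since no list holds a peak under 12 reads, and the 3 clones limit the precision of every mean.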
